A study of Mus musculus with 6 samples.

Results

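Sprouty, DUSP and ETV genes are switched on by ERK signalling, and many of their products act back on it. Their mRNA levels are described here in hematopoietic stem cells (HSC), from which all blood cells descend, in mice with and without induced deletion of Nr4a1. The 10 genes, Spry1, Spry2, Spry4, Spred1, Spred2, Dusp4, Dusp5, Dusp6, Etv4 and Etv5, were taken by symbol from the 24062 listed genes. They were selected on their difference between the same 6 libraries as well as on family, so their values in that comparison are a description. Control mice carried floxed Nr4a1 alleles and no functional Nr4a3 (Nr4a1 fl/fl; Nr4a3-/-). CDKO mice carried the same alleles and the Rosa26-ERt2 construct, by background a Cre recombinase active only after tamoxifen. All mice received tamoxifen at 120 mg per kg in 4 daily injections, and the HSC sort followed on day 5. Each of the 3 libraries per group came from a pool of 3 to 5 mice. All animals thus lacked Nr4a3, and effects of Cre activity and of Nr4a1 loss cannot be told apart because only CDKO mice carried the construct.

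Growth factor receptors signal through RAS, RAF and MEK to ERK, a kinase that acts on cytoplasmic and nuclear substrates. Sprouty and Spred proteins restrain the steps around RAS and RAF. DUSP4, DUSP5 and DUSP6 are phosphatases that inactivate MAP kinases, DUSP5 and DUSP6 mainly ERK, and ETV4 and ETV5 are ETS transcription factors of the PEA3 group that are themselves induced by FGF and ERK signalling. In HSC the KIT receptor feeds this pathway, so these genes are often read as a transcript record of past ERK activity, although mRNA levels do not measure ERK phosphorylation.

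Promoter windows are shown for 3 genes that differ in direction or in the motifs found: Spry1, Spred2 and Dusp5. RefSeq windows on GRCm38.p6 were matched for 7 of the 10 genes (Spry1, Spry2, Spred1, Spred2, Dusp5, Dusp6 and Etv5, with 2 starts for Etv5), and the 250 bases before each start were searched on both strands. The windows lie at chr3:37639697-37639946 for Spry1, chr11:19924192-19924441 for Spred2 and chr19:53528895-53529144 for Dusp5, all on the plus strand. Capitals mark SRF boxes (the serum response factor element), CRE half-sites and ETS cores.
Spry1: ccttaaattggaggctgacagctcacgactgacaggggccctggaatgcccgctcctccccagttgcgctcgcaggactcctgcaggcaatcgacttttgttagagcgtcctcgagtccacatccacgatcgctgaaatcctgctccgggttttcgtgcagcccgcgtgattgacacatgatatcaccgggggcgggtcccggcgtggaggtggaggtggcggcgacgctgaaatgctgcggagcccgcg
Spred2: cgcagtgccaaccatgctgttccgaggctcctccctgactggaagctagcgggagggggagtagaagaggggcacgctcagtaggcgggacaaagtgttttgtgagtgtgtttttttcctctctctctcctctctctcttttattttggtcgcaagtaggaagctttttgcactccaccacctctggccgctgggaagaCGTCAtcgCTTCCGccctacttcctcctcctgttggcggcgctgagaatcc
Dusp5: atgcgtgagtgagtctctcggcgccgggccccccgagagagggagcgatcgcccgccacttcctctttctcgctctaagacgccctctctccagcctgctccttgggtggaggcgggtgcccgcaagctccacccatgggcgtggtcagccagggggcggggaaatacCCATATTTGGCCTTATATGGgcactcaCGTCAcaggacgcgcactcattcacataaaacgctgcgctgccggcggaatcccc

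The Dusp5 window held 2 SRF boxes, with first bases 82 and 72 bases before the start, and a CRE half-site at 55. An SRF box lies in 1.47% of the 32851 windows of the same length and 2 or more lie in 0.0183%, which is 6 windows. The Spred2 window held a CRE half-site (TGACG, in 17.8% of windows) at 51 and an ETS core (CGGAAG, in 13.6%) at 43. An ETS core was also present at 17 bases in Spred1 and at 62 in Dusp6, while the Spry1, Spry2 and Etv5 windows held none of these 3 motifs. None of the 8 windows held the full NR4A element AAAGGTCA (1.34% of windows), the CRE TGACGTCA (1.55%), the AP-1 element TGANTCA (6.75%) or the longer ETS site CCGGAAGT (2.88%). The half-site is contained in the full CRE and the core in the longer ETS site, and the SRF box, half-site and core were added after the promoters had been seen. The GC content of the member windows ran from 56.0% to 71.2%, beside a median of 52.4% over all windows. These matches are letters in a window and were not tied to binding by any data used here. Positions count from RefSeq starts, which differ from the GENCODE M21 starts given below for some genes. The Spred2 window runs past its GENCODE start at 19924375, so its half-site and core lie within the annotated gene. The Spred1 window ends at 117121070, before its GENCODE start at 117121374. The Dusp5 window ends at 53529144, past its GENCODE start at 53529109, with its marked motifs before that start. Of the 2 Etv5 windows, chr16:22438369-22438618 lies within the annotated gene. The other, chr16:22439571-22439820, overlaps the gene's GENCODE start at 22439719.

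Levels are in counts per 1000000 reads (CPM), and the libraries held from 32863805 to 42772261 reads, so that 3 counts correspond to 0.0701 to 0.0913 CPM. Nr4a3 had 0 reads in every library. Nr4a1 fell from 13.8 ± 1.18 CPM in control to 9.13 ± 0.623 in CDKO (SD, n = 3 each; log2 difference -0.55, adjusted p = 0.00204 in limma), and Nr4a2 was 3.86 ± 0.282 and 2.43 ± 1.22 without passing (adjusted p = 0.0547). The remaining Nr4a1 reads do not show how much intact transcript was left, since reads from outside the deleted part count too. HSC markers were high in both groups, with a summed level of 6584 to 6848 CPM over 15 genes in control and 6178 to 6369 in CDKO. Markers of other blood cells moved as well. Of 12 tested neutrophil genes 11 were lower in CDKO and their summed level went from 821–1073 to 19.0–94.7 CPM, with Ngp, a neutrophil granule gene, at 239.7 ± 32.8 and 6.99 ± 5.90. Summed erythroid markers (8 of 10 lower) went from 577–645 to 130–158 CPM and basophil, eosinophil and mast cell markers (7 of 9 lower, 1 higher) from 399–449 to 20.4–24.6. Megakaryocyte markers (9 of 11 higher) went from 473–514 to 674–691 CPM, endothelial markers (5 of 9 higher, 1 lower) from 506–522 to 548–599.6, and macrophage markers (4 of 9 higher, 4 lower) from 46.8–53.1 to 35.5–42.0. B, T and NK cell markers (3 of 6 tested higher, 1 lower) went from 102–113 to 140.0–141 CPM. Among the markers Lyve1, Sox17, Ms4a1, Pax5, Cd3e and Cd3g had 0 reads in all 6 libraries and are named for that reason. The endothelial gene Cdh5 had 0 in control and averaged 0.0239 CPM in CDKO. The genes with the highest mean CPM were Nkg7, Cd79b and Klrb1c on the B, T and NK cell list. On the endothelial list they were Tie1, Egfl7 and Pecam1. In bulk RNA fewer cells of a type and less RNA per cell cannot be told apart, and the part of these shifts in the results below was not tested.

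Of the 10 feedback genes 7 were higher in CDKO and 1 was lower, while Spry2 and Dusp6 did not pass the test, limma on log2(CPM + 1) at an adjusted p of 0.05. Among all 13732 genes tested, 31.1% were higher and 35.2% lower by the same rule. In 7 of the 10 all 3 CDKO pools lay above all 3 control pools, as in 33.4% of all genes, and in 1 all lay below, as in 37.2%. The authors' deposited table also placed 8 of the 10 under an adjusted p of 0.05, as it did 64.9% of its genes with an adjusted p. The median log2 difference of the 10 was 0.34, beside -0.02 over all genes tested. Since the genes were chosen with this comparison known, nothing is read from these counts.

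**Figure D1:**
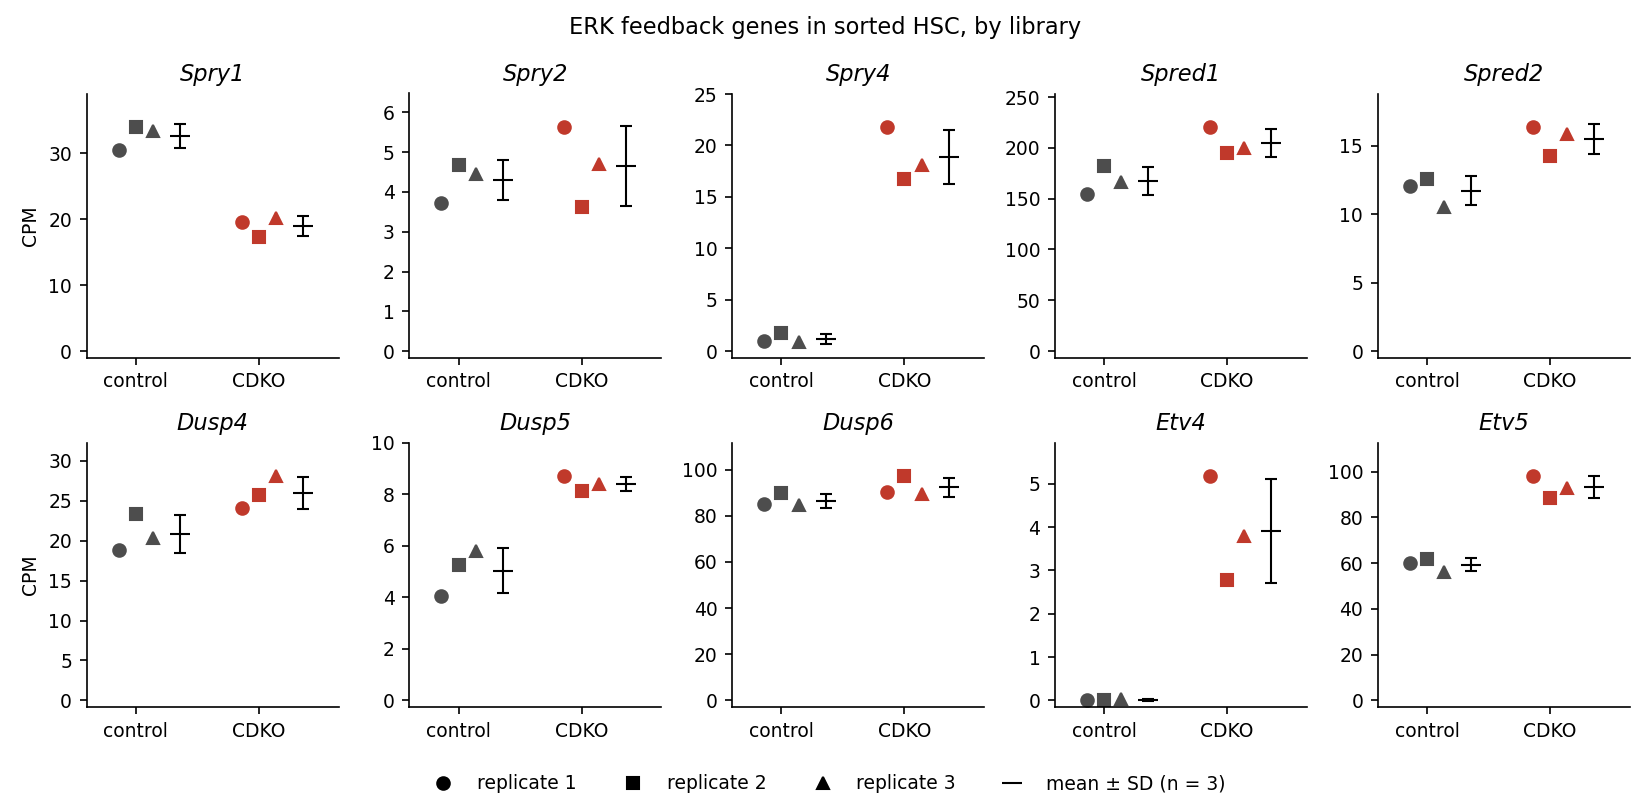
Level of each feedback gene in every library. Vertical axes give CPM on a linear scale that differs by gene, points are pools of mice (circle, square and triangle for replicates 1 to 3), and bars give mean ± SD (n = 3). Control and CDKO points are separate for 8 genes and overlap for Spry2 and Dusp6.

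Spry4 had the largest difference of the 10 genes on the log2(CPM + 1) scale, while Etv4, nearly without reads in control, had the larger ratio. Its product is a Sprouty protein that inhibits growth factor signalling to RAS and RAF. Spry4 stood at 0.997, 1.76 and 0.850 CPM in the 3 control pools, from 39, 64 and 36 reads. In the CDKO pools it stood at 21.8, 16.8 and 18.1 CPM, from 716, 695 and 774 reads. Every CDKO pool lay far above every control pool, and the lowest CDKO value was in replicate 2. The mean went from 1.20 ± 0.486 to 18.9 ± 2.61 CPM (SD, n = 3 each), a ratio of 15.7. On the log2(CPM + 1) scale the difference was 3.19 (SE 0.18, 95% interval 2.80 to 3.58), which ranked 47 by size among the 13732 genes tested. Estimate and rank depend on the added 1 CPM, since Spry4 was near that level in control. In edgeR and in DESeq2, on recovered reads, the log2 fold was 4.00. The gene lies on chromosome 18 from 38586247 to 38601415 on the minus strand (GRCm38, GENCODE M21).

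Spry1, the Sprouty gene with the highest level per kb of exon in control HSC, was the only one of the 10 genes called lower. It measured 30.5, 33.9 and 33.3 CPM in control and 19.5, 17.3 and 20.1 CPM in CDKO. The 3 CDKO pools were close to each other and all below the control pools. The mean went from 32.6 ± 1.86 to 18.97 ± 1.47 CPM, a ratio of 0.583, and the log2 difference was -0.75 (SE 0.10, 95% interval -0.96 to -0.54). Spry1 lies on chromosome 3 from 37639947 to 37644598 on the plus strand. It shares 710 exonic bases with Gm42922 on the opposite strand, and no source used here says that counting used strand, so reads in that stretch cannot be told apart.

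Spry2, which encodes a further Sprouty protein that binds GRB2 and CBL, did not separate the groups. Its control levels were 3.73, 4.69 and 4.46 CPM and its CDKO levels 5.63, 3.62 and 4.70. The highest and the lowest value were both from CDKO pools, replicates 1 and 2. The log2 difference was 0.08 (SE 0.17, 95% interval -0.29 to 0.45), and it was -0.04 without CDKO replicate 1. Spry2 lies on chromosome 14 from 105891947 to 105896819 on the minus strand.

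Divided by exonic length, the 3 Sprouty genes added up to a similar level in both groups while their proportions differed. The sum was 12.5, 14.3 and 13.8 CPM per kb of exon in control and 13.99, 11.2 and 13.0 in CDKO, which overlap. Spry1 made up 83.0 ± 1.16% of this sum in control and 51.5 ± 3.03% in CDKO. Spry4 made up 1.85 ± 0.661% in control and 31.2 ± 1.73% in CDKO, and Spry2 15.2 ± 0.747% and 17.4 ± 1.91%. Spry1 remained the largest of the 3 in every library. These per-length values assume that the whole annotated exon length is transcribed.

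**Figure D2:**
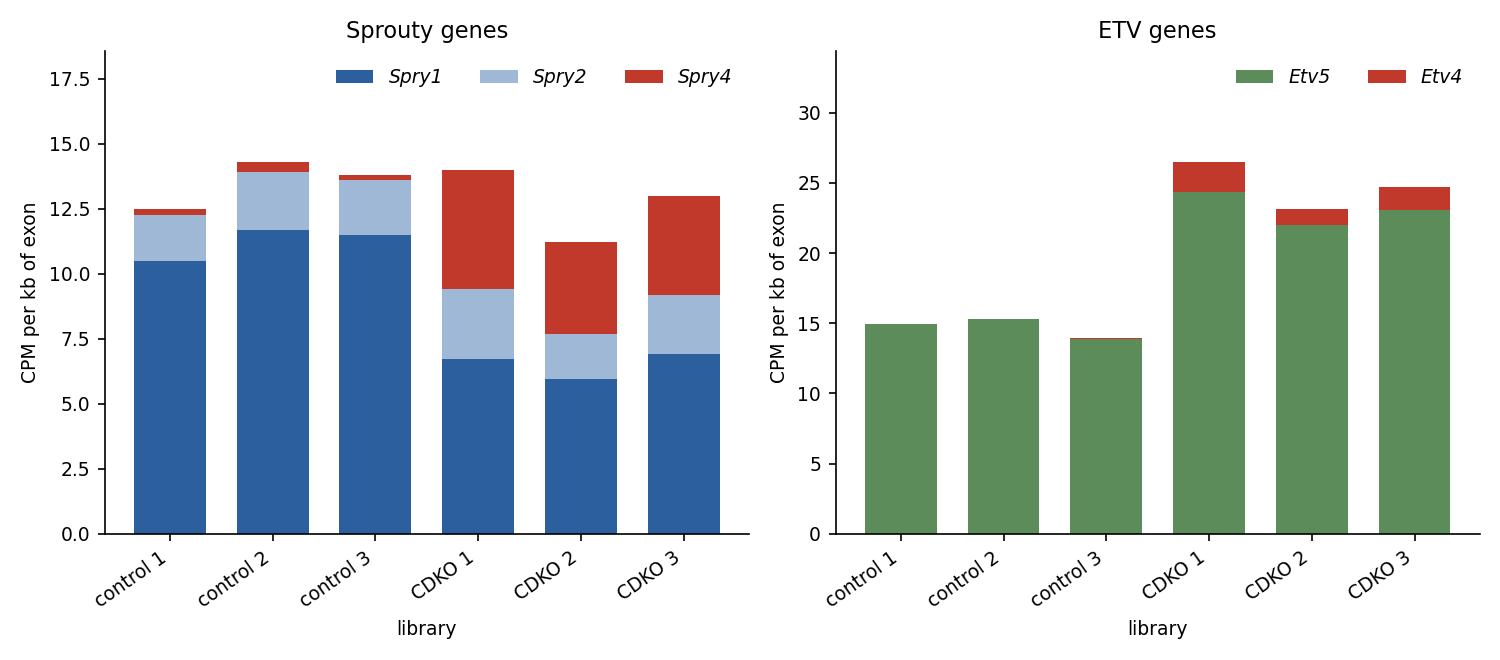
Composition of the Sprouty and ETV families per library. Stacked bars give CPM per kb of exon on linear axes from 0, one bar per pool. Spry4 takes up 31.2% of the Sprouty sum on average in CDKO and 1.85% in control, and Etv4 6.51% and 0.0236% of the ETV sum.

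The Spred genes encode Sprouty-related proteins with an EVH1 domain, and SPRED1 recruits neurofibromin to RAS. Spred1 stood at 154, 182 and 166 in control and 220.4, 195 and 199.7 in CDKO. Spred2 measured 12.0, 12.6 and 10.6 CPM in control and 16.4, 14.2 and 15.9 in CDKO. Neither gene had overlapping groups, and in both the highest value was from CDKO replicate 1. The mean of Spred1 went from 167.5 ± 13.7 to 205 ± 13.7 CPM (ratio 1.22, log2 difference 0.29, SE 0.06, 95% interval 0.15 to 0.43). The mean of Spred2 went from 11.7 ± 1.05 to 15.5 ± 1.11 CPM (ratio 1.32, log2 difference 0.38, SE 0.12, 95% interval 0.11 to 0.64). Spred2 no longer passed without control replicate 3 (adjusted p = 0.0605 in limma). Spred1 held 90.3 ± 0.903% of the summed per-length level of the pair in control and 89.7 ± 0.419% in CDKO, so the pair kept nearly the same proportion. Spred1 lies on chromosome 2 from 117121374 to 117182279 and Spred2 on chromosome 11 from 19924375 to 20024026, both on the plus strand.

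Among the phosphatases Dusp5, whose product is a nuclear phosphatase selective for ERK, had the largest difference. Dusp5 measured 4.07, 5.27 and 5.79 CPM in control and 8.70, 8.15 and 8.39 in CDKO. The CDKO pools lay close together and above all control pools. The mean went from 5.04 ± 0.882 to 8.42 ± 0.277 CPM, a ratio of 1.67, with a log2 difference of 0.65 (SE 0.15, 95% interval 0.33 to 0.97). Dusp5, whose promoter held the 2 SRF boxes shown above, lies on chromosome 19 from 53529109 to 53542431 on the plus strand. It shares 547 exonic bases with the antisense gene AC137853.2, so reads there cannot be told apart either.

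Dusp4, which encodes a nuclear phosphatase acting on ERK and other MAP kinases, had a small difference whose call depended on single libraries. It stood at 18.8, 23.4 and 20.4 CPM in control and 24.1, 25.7 and 28.1 in CDKO. The lowest CDKO pool was just above the highest control pool. The mean went from 20.8 ± 2.32 to 25.97 ± 2.00 CPM (ratio 1.25, log2 difference 0.31, SE 0.11, 95% interval 0.07 to 0.54). The limma call was lost without control replicate 1 (adjusted p = 0.0901), control replicate 3 (0.0666), CDKO replicate 2 (0.0525) or CDKO replicate 3 (0.0871). Dusp4 lies on chromosome 8 from 34807297 to 34819894 on the plus strand.

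Dusp6, which encodes the cytoplasmic ERK phosphatase and is often used as a readout of ERK activity, did not separate the groups. It stood at 85.1, 90.06 and 84.7 CPM in control and 90.6, 97.2 and 89.6 in CDKO. The highest control pool exceeded the lowest CDKO pool. The mean was 86.6 ± 3.00 and 92.4 ± 4.13 CPM, and the log2 difference of 0.09 had a 95% interval of -0.03 to 0.21. That interval leaves room for a slightly lower, an equal or a slightly higher level in CDKO. The 3 phosphatase genes together went from 40.6 ± 2.03 to 45.9 ± 1.39 CPM per kb, with Dusp6 holding 76.3 ± 1.63% of the sum in control and 71.9 ± 1.62% in CDKO. Dusp6 lies on chromosome 10 from 99263231 to 99267489 on the plus strand.

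Both ETV genes were higher in CDKO, from very different starting levels. Etv4 had 0, 0 and 1 read in the control pools, which is at most 0.0236 CPM and under the level that a count of 0 allows. The CDKO pools had 170, 115 and 162 Etv4 reads, or 5.17, 2.77 and 3.79 CPM. Every CDKO pool had at least 115 Etv4 reads while control HSC had next to none. Summed over libraries, 1 read in control and 447 in CDKO gave a ratio of 450.1 with a counting interval of 80.4 to 17817 (95%, counting error only). The fitted log2 difference of 2.26 (SE 0.19) depends on the added 1 CPM. Etv4 lies on chromosome 11 from 101769742 to 101785371 on the minus strand.

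Etv5 was already expressed in control HSC, at 60.3, 61.8 and 56.01 CPM, and stood at 97.98, 88.7 and 93.1 CPM in CDKO. The groups were far apart relative to the spread of either. The mean went from 59.3 ± 2.98 to 93.2 ± 4.65 CPM, a ratio of 1.57, with a log2 difference of 0.64 (SE 0.06, 95% interval 0.51 to 0.78). Per kb of exon, Etv5 accounted for 99.98% of the ETV pair in control and 93.5 ± 1.58% in CDKO. Etv5 lies on chromosome 16 from 22381309 to 22439719 on the minus strand.

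**Figure D3:**
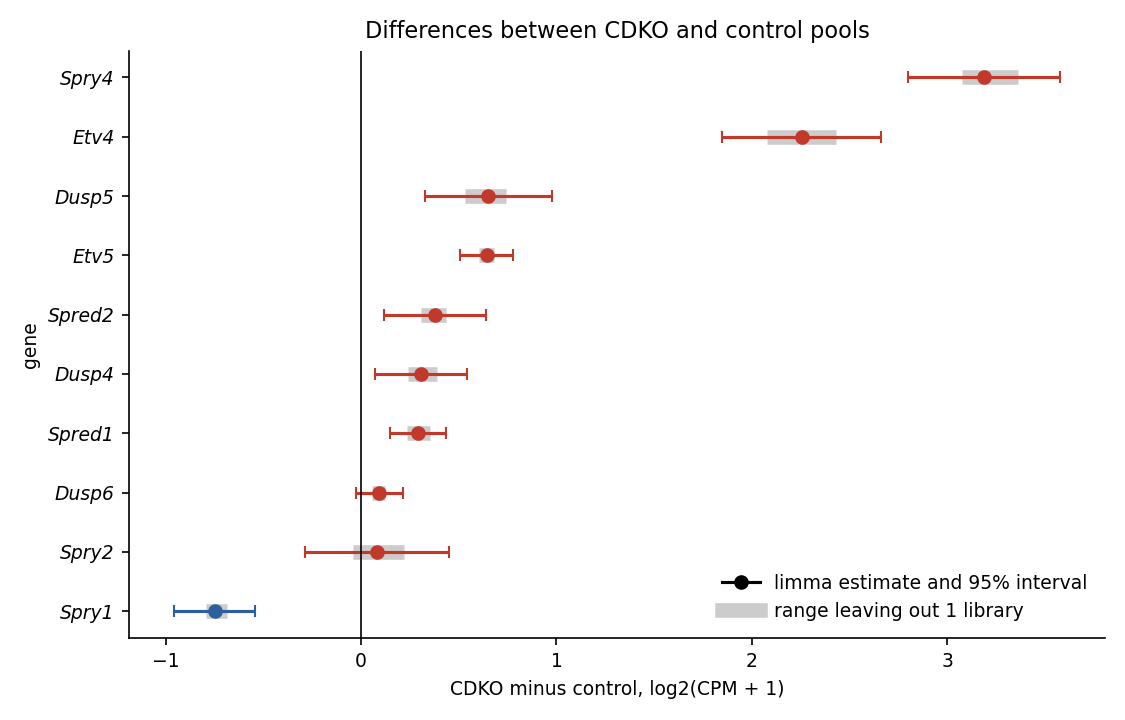
Difference between CDKO and control for the 10 feedback genes. The horizontal axis gives CDKO minus control on the log2(CPM + 1) scale, points with bars are limma estimates with 95% intervals, and grey bands give the range when any 1 library is left out. Spry4 (3.19) and Etv4 (2.26) stand apart, Spry1 (-0.75) is the only gene whose interval lies below 0, and the intervals of Spry2 and Dusp6 include 0.

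Within each group the pools were ordered alike for many of these genes. Control replicate 2 had the highest of the 3 control values for 8 of the 10 genes, as it did for 31.9% of all genes tested. CDKO replicate 1 had the highest of the 3 CDKO values for 7 of the 10 genes, as it did for 30.8% of all genes tested. CDKO replicate 2 had the lowest for 8 of the 10, as it did for 28.7%. In CDKO the exceptions to both were Dusp4 and Dusp6, and Spry1 was highest in replicate 3. This is a description of 3 pools a group.

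Levels between genes were compared per kb of exon. In control HSC the order ran from Dusp6 (31.0 CPM per kb) through Spred1 (24.7), Etv5 (14.7), Spry1 (11.2), Dusp4 (7.61), Spred2 (2.64), Spry2 (2.06), Dusp5 (2.04) and Spry4 (0.253) to Etv4 (0.00328). The ranges of Spry2 and Dusp5 overlapped, and all other neighbours were separate in every library. In CDKO the order was Dusp6 (33.05), Spred1 (30.2), Etv5 (23.1), Dusp4 (9.48), Spry1 (6.53), Spry4 (3.97), Spred2 (3.49), Dusp5 (3.40), Spry2 (2.23) and Etv4 (1.63). There the ranges of Dusp6 and Spred1 overlapped, as did those of Spry4 with Spred2, Spred2 with Dusp5 and Spry2 with Etv4. Dusp4 thus passed Spry1 in the order, and Spry4 moved from below Spry2 to above it.

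**Figure D4:**
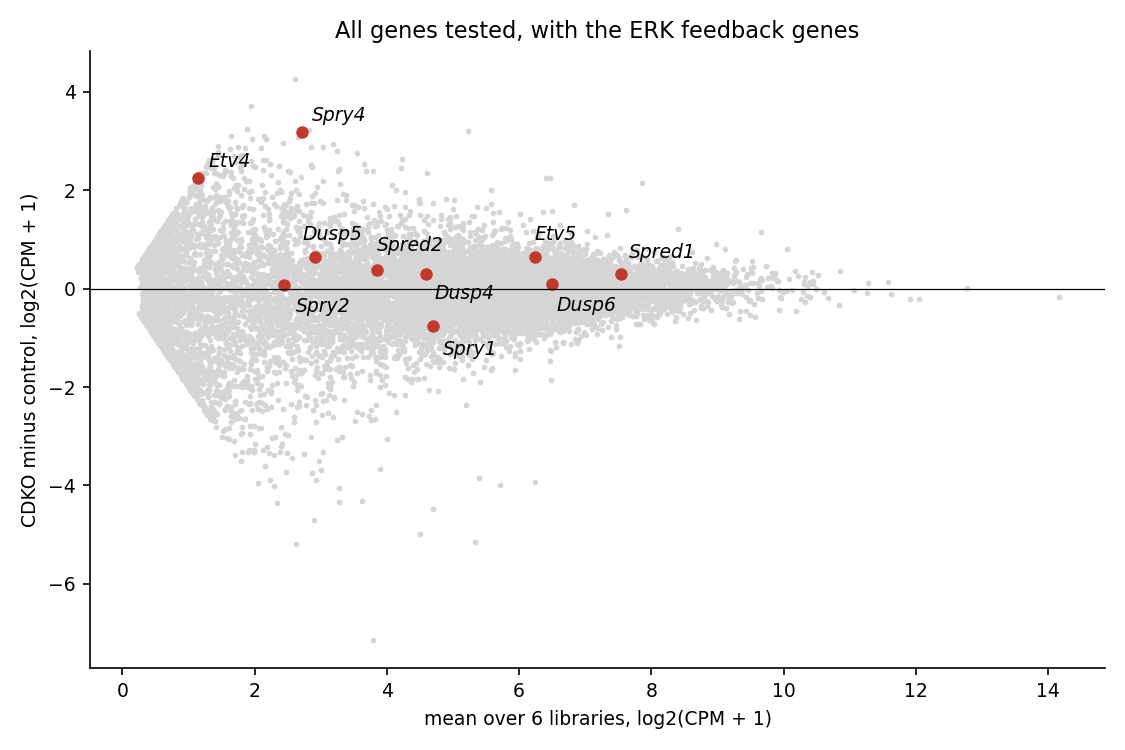
All 13732 genes tested, with the 10 feedback genes in red. The horizontal axis is the mean over 6 libraries and the vertical axis is CDKO minus control, both on the log2(CPM + 1) scale. Spry4 lies near the upper edge of the cloud and Dusp6 (0.09), Spred1 (0.29) and Etv5 (0.64) lie to the right.

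Profiles most like 3 of the genes were sought by the root mean square difference of control-centred log2(CPM + 1) over the 6 libraries. Nearest to Spry4 were the interferon-inducible gene Ifi204 (0.114), the interferon-induced gene Ifit3 (0.165) and the integrin subunit gene Itga1 (0.168). Ifi204 went from 0.247 ± 0.427 to 10.5 ± 1.17 CPM and Ifit3 from 11.4 ± 0.806 to 113 ± 7.25. Nearest to Dusp5 were Bbs9 (0.0369), Cyb5rl (0.0397) and Gm16039 (0.0424). Nearest to Etv4 were Prelp (0.142), Dazl (0.154) and the phospholipase gene Plcb1 (0.158). Prelp averaged 0.0236 CPM in control, while Plcb1 went from 1.57 ± 0.362 to 12.4 ± 2.30. The measure is taken after 1 CPM is added, so genes near each other by it can differ widely in ratio. Whether any of these genes share regulation was not tested.

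For this and each further list, counts are to be read beside the 31.1% of all tested genes that were higher and the 35.2% that were lower, and nothing particular to a list is taken from them. Of 8 relatives in the same families that were tested (Spry3 and Dusp8 had 0 reads), 3 were higher, 2 lower and 3 did not pass, with a median log2 difference of 0.21. Dusp2, a nuclear MAP kinase phosphatase induced in activated blood cells, fell from 154 ± 5.72 to 110.8 ± 6.97 CPM (log2 difference -0.48, adjusted p = 2.1e-05 in limma). Etv1, the remaining PEA3 factor, rose from 0.0964 ± 0.121 to 0.852 ± 0.214 CPM (0.76, adjusted p = 0.0015 in limma). It had 1, 1 and 10 reads in the control pools and 20, 42 and 40 in CDKO, so its difference depends on the added 1 CPM. Dusp10, a phosphatase for p38 and JNK, rose from 1.98 ± 1.06 to 3.99 ± 0.191 CPM (0.81, adjusted p = 0.0091 in limma). Beside these single genes, the list as a whole is described only by its counts. Dusp9 was 1.69 ± 0.244 and 2.74 ± 0.629 CPM and Dusp16 13.2 ± 1.11 and 10.1 ± 1.96, with limma adjusted p of 0.03 and 0.046. Dusp9 lost its call in 4 of the 6 fits without 1 library (those without control replicate 1 or 2 or CDKO replicate 2 or 3), and Dusp16 in 5, all but the one without CDKO replicate 1. Dusp1 (39.9 ± 1.46 and 38.96 ± 1.69 CPM), Dusp7 (43.0 ± 1.95 and 38.4 ± 1.87) and Spred3 (3.50 ± 0.784 and 5.76 ± 2.65) did not pass, though Spred3 did without CDKO replicate 2 (adjusted p = 0.0351 in limma).

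Of 20 other negative regulators tested 6 rose, 9 fell and 5 did not pass, with a median of -0.08, beside 31.1% and 35.2% of all genes. The largest difference was in Errfi1, whose product MIG6 inhibits EGF receptors, which stood at 0, 0.329 and 0.921 CPM in control and 9.71, 6.73 and 6.83 in CDKO. Its log2 difference was 2.66 (adjusted p = 2.7e-06 in limma), and no control pool came near a CDKO pool. Sh2b3, which encodes the adaptor LNK that restrains KIT signalling, fell from 87.1 ± 0.979 to 65.1 ± 3.45 CPM (-0.41, adjusted p = 7e-05 in limma). Rasal3, a RAS GTPase activator, fell from 335 ± 7.61 to 254 ± 16.0 CPM (-0.40), and Ptpn6, the phosphatase SHP1, from 408 ± 4.64 to 351 ± 17.4 (-0.22). Dok1, an adaptor that recruits RAS GTPase activators, rose from 49.6 ± 3.79 to 69.2 ± 2.61 CPM (0.47) and Pebp1, the RAF kinase inhibitor protein, from 116 ± 3.80 to 140.6 ± 6.89 (0.28). Rasa3, Peli1 and Dok2 did not pass, with Rasa3 at 338 ± 3.27 and 339 ± 16.5 CPM. Dok2 passed without control replicate 3 (adjusted p = 0.0380 in limma) or CDKO replicate 1 (0.0309).

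The receptors upstream included genes that went in opposite directions. Of 24 tested 7 rose, 11 fell and 6 did not pass, with a median of -0.13. Kit, the stem cell factor receptor, fell from 2046 ± 64.6 to 1631 ± 67.7 CPM (-0.33, adjusted p = 7.9e-05 in limma). Csf1r, Flt4, Kdr, Tek and Erbb3, receptors of CSF1, VEGF, angiopoietin and neuregulin families, rose. Csf1r went from 3.22 ± 0.626 to 21.5 ± 1.68 CPM, Tek from 70.9 ± 7.03 to 122 ± 1.01 and Erbb3 from 8.02 ± 1.3 to 23.9 ± 0.649. Flt4 went from 0.555 ± 0.509 to 11.99 ± 1.92 CPM and Kdr from 1.28 ± 0.340 to 7.88 ± 0.921. Flt4 and Kdr are also on the endothelial marker list, whose summed level and calls are given above. On that list Pecam1 (81.5 ± 2.59 and 98.1 ± 8.69 CPM), Egfl7 (105 ± 5.49 and 137 ± 6.11) and Sox18 (8.39 ± 0.476 and 10.8 ± 0.441) were also higher, Stab2 (0.561 ± 0.353 and 0.0468 ± 0.0810) was lower, Emcn, Tie1 and Plvap did not pass, and Cdh5, Lyve1 and Sox17 were at or near 0. Their part in the receptor levels was not tested. Pdgfra fell from 5.30 ± 0.686 CPM to 0 reads in all 3 CDKO pools. Also among the 11 that fell, Fgfr1 went from 49.3 ± 2.65 to 25.7 ± 2.59 CPM and Fgfr3 from 56.0 ± 1.71 to 28.5 ± 3.13. Tie1 (290.1 ± 6.19 and 282 ± 14.2 CPM), Igf1r and Pdgfrb did not pass. Igf1r passed as lower without control replicate 3 (adjusted p = 0.0378 in limma) or CDKO replicate 1 (0.0383), and Pdgfrb without CDKO replicate 2 (0.00835).

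Of 20 genes tested on the ligand list 9 rose, 8 fell and 3 did not pass, with a median of 0.02. That list includes Fgf11 (lower) and Fgf13 (higher), FGF family members that act mainly inside cells and are not established receptor ligands. The EGF family split: Hbegf rose from 3.97 ± 0.512 to 10.2 ± 0.507 CPM (1.17, adjusted p = 2.2e-05 in limma) and Tgfa fell from 5.20 ± 0.241 to 0.487 ± 0.466 (-2.10, adjusted p = 5.7e-06 in limma). Efna1 rose from 13.6 ± 1.57 to 24.03 ± 2.29 CPM. Hgf, the ligand of MET, fell from 27.0 ± 1.81 to 17.3 ± 1.19 CPM, and Angpt1, a ligand of TEK, from 771 ± 48.5 to 650.8 ± 11.3. Fgf11 fell from 5.87 ± 0.803 to 1.20 ± 1.26 CPM, and Csf1, Gas6 and Vegfa did not pass, though Gas6 was lower without control replicate 1 (adjusted p = 0.0429 in limma). Without control replicate 1 or CDKO replicate 2, 5 genes of the ligand list were called higher in place of 9.

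In the relay from receptor to ERK, 8 of 28 tested genes rose, 8 fell and 12 did not pass, with a median of -0.00. Gab1, a docking adaptor, fell from 57.6 ± 4.74 to 20.5 ± 3.77 CPM (-1.46, adjusted p = 1.7e-06 in limma), and the scaffold gene Ksr1 from 8.94 ± 0.715 to 4.04 ± 0.546 (-0.98). Grb2, the adaptor that brings SOS to receptors, rose from 149 ± 2.01 to 204.5 ± 2.63 CPM (0.46, adjusted p = 3.3e-06 in limma). The RAS family genes Hras (31.3 ± 1.78 to 51.99 ± 3.64 CPM) and Rras2 (13.3 ± 0.518 to 26.0 ± 1.64) rose. Mapk3, which encodes the kinase ERK1, fell from 112 ± 4.77 to 92.8 ± 4.67 CPM (-0.27, adjusted p = 0.0013 in limma). The kinase genes Braf (135 ± 15.0 and 128 ± 3.74 CPM) and Map2k2 (154 ± 5.47 and 163.5 ± 4.44) did not pass, though Braf was lower without control replicate 1 (adjusted p = 0.0259 in limma).

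Of 19 further ERK targets tested 10 rose, 4 fell and 5 did not pass, with a median of 0.29. Epha2 (higher) and Epha4 (lower) are also on the receptor list and are counted in both lists. Jun, an AP-1 subunit, rose from 8.64 ± 0.920 to 29.8 ± 2.77 CPM (1.68, adjusted p = 7.5e-07 in limma) and Egr1, an early growth response factor, from 33.7 ± 3.33 to 54.3 ± 4.77 (0.67, adjusted p = 6e-05 in limma). Phlda1 rose from 0.474 ± 0.373 to 3.59 ± 1.21 CPM (1.64, adjusted p = 6e-05 in limma). The ternary complex factor gene Elk4 rose from 36.1 ± 3.36 to 56.5 ± 1.43 CPM, and the ephrin receptor gene Epha2 from 3.01 ± 0.701 to 12.2 ± 1.06. Other targets went the other way. Myc fell from 505 ± 31.7 to 382 ± 7.66 CPM (-0.40, adjusted p = 2.6e-05 in limma) and Ccnd1, cyclin D1, from 32.2 ± 1.43 to 21.4 ± 0.626 (-0.57, adjusted p = 0.00013 in limma). Epha4 fell from 3.57 ± 1.17 CPM to a mean of 0.0879, at the level of 3 counts. Mcl1, Elk3 and Srf did not pass, with Srf at 36.97 ± 2.02 and 40.1 ± 3.08 CPM. Without control replicate 2 Mcl1 passed as higher (adjusted p = 0.0405 in limma), and without CDKO replicate 2 Elk3 did (0.0331). The immediate early genes Fos, Fosb, Fosl1, Egr2 and Egr3 had too few reads to be tested.

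**Figure D5:**
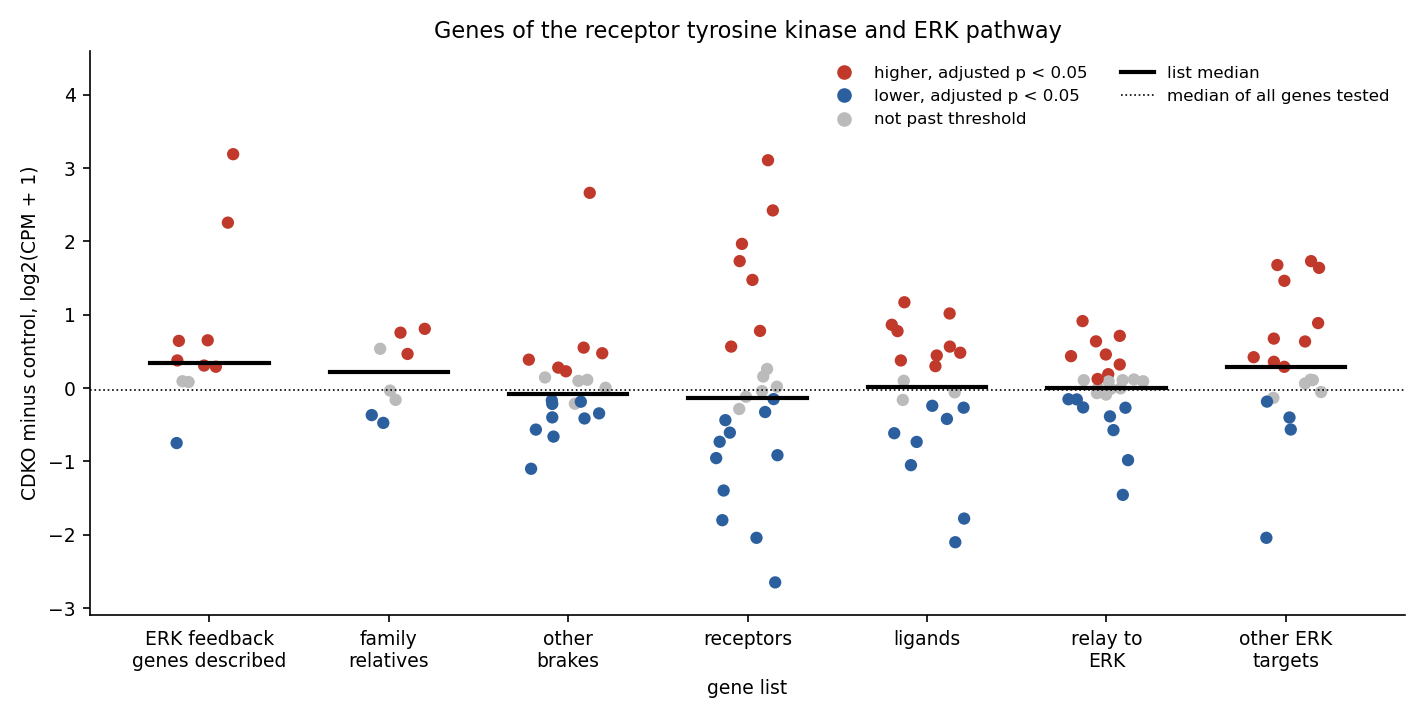
Genes of the receptor tyrosine kinase and ERK pathway by role, with Epha2 and Epha4 drawn under both receptors and other ERK targets. The vertical axis is CDKO minus control on the log2(CPM + 1) scale, each point is a gene (red higher, blue lower, grey not past the threshold), thick bars are list medians and the dotted line is the median of all genes tested. Medians lie at 0.34 for the feedback genes, 0.29 for the other ERK targets and between -0.13 and 0.21 for the remaining lists, and every list holds both red and blue points.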

How the data were processed

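RNA of sorted HSC was extracted with RNeasy Micro columns, amplified with the SMARTer Ultra Low Input v3 kit and made into Nextera XT libraries, per the labels' protocols. TopHat2, HTSeq, DESeq2 and the build mm10 are named, with no versions, per the submitters' processing notes. The annotation, the sort markers and preparation batches are not given in the sources used here. The deposited values per library are CPM, and each column sums to 1000000. Dividing by the value of 1 read gave whole reads for 99.9989% of values, to a tolerance of 0.01 read. As deposited, baseMean is a signal averaged from scaled counts of all libraries. The authors' log2 fold change, with its error, is control relative to CDKO and was inverted here. Their stat column, also deposited, is a score. The authors' p-value and adjusted p served only for counts of calls.

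Genes with a mean of at least 10 recovered reads (0.255 CPM) were tested on log2(CPM + 1) with limma 3.58.1 (R 4.3.3), using eBayes with a trend, two-sided, CDKO minus control, with Benjamini-Hochberg adjustment over all genes and a threshold of 0.05. Of the listed genes 7104 had no read and 12 had dates for symbols. The members and lists were chosen with earlier results of these data known. Named are the 10 members, Nr4a1 to Nr4a3, in each pathway list up to 6 genes past the threshold with the smallest p and up to 3 others with the highest mean, the 3 nearest profiles, and up to 3 markers per list. Certain of these genes are left out of the text, though list counts include them. Mapk3, Kit, Phlda1, Ccnd1, Fgfr1, Fgfr3, Fgf13, Sox18, Stab2, Emcn, Plvap and the markers at or near 0 were named after their values were seen. Lengths and coordinates are from GENCODE M21 on GRCm38, which may differ from the annotation the authors counted on. Pools are the replicates. Each p-value weighs the group difference against a variance between pools that is estimated with information from all genes. Alternatives were a replicate block, leaving out each library, 3 other filters, TMM and quantile scaling, pseudocounts of 0.5 or 5, recovered reads in DESeq2 1.42.0 or edgeR 4.0.16, a threshold of 0.1 and, added after seeing the data, a loess correction for GC content and length. A planned comparison of protein sequences was not run.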

Additional observations from a re-analysis of the deposited data

How the results depend on the processing

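The count of feedback genes called higher was 7 under most alternatives and 5 to 7 without 1 library; it was 5 with a mean of at least 10 CPM, where 7 of the 10 genes were tested. Spry1 was the 1 gene called lower under every alternative run. Over all genes the number of calls ran from 6576 (mean of at least 10 CPM) to 9920 (threshold of 0.1). No label states that the numbers pair pools, and deviations of same-numbered pools correlated at 0.0518, 0.0483 and -0.0120. Pools with unlike numbers correlated at -0.0650 to 0.0263. Such correlations cannot settle whether same-numbered pools shared a preparation, and the main test treated the pools as unpaired. With a replicate block 9241 genes were called in place of 9096, and 7 feedback genes were higher and 1 lower. The block also brought Dok2, Igf1r, Pdgfrb and Spred3 past the threshold (limma adjusted p 0.0236, 0.0358, 0.0397 and 0.0308). Of the results for feedback genes 171 kept direction and call, 5 lost the call (Dusp4 without 4 libraries in turn, Spred2 without control replicate 3) and Spry2, which did not pass, changed sign. Without 1 library its log2 difference ran from -0.0414 to 0.220. Among the other named genes 33 results gained a call and 15 lost one. DESeq2 called Dok2, Dusp7, Elk3, Map2k2, Peli1 and Spred3, and GC and length correction called Dok2, Elk3, Map2k2, Peli1, Spred3 and Srf, all of which did not pass in the main test. Other genes that changed sign did not pass in the main test. Without 1 library Csf1 ran from -0.0353 to 0.193, Rasa3 from -0.0359 to 0.0295 and Vegfa from -0.116 to 0.00688. With GC and length correction Braf was 0.0339, Igf1r 0.0543 and Tie1 0.0908, and with quantile normalization Rasa3 was -0.0138 and Vegfa 0.0125. Among the lists, relatives called lower numbered 1 in place of 2 under 10 alternatives, through Dusp16. With a mean of at least 10 CPM, 0 relatives, 4 receptors and 3 ligands were called higher and 7 receptors and 4 ligands lower, since fewer genes were tested. The cause of the other changes was not tested. Depth limits Etv4 in control, where 1 read was counted in all.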
